A study of Mus musculus with 6 samples.

Results

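Class IIa histone deacetylases (HDACs) and the MEF2 transcription factors were followed in Ocy454 cells, a mouse cell line with osteocyte properties. All rows of the expression matrix with the symbols Hdac4, Hdac5, Hdac7, Hdac9, Mef2a, Mef2b, Mef2c or Mef2d were taken, which gave 9 rows of 39179, since Hdac4 is listed under 2 Ensembl identifiers. The rule for taking rows used the symbols only, and the symbols themselves were chosen with earlier results of these data known. The study asked how far an inhibitor of salt-inducible kinases (SIKs), YKL-05-093, regulates the same genes as parathyroid hormone (PTH). Cells had reached confluence at 33 °C and were then held at 37 °C for 14 days, with fresh medium on the day before harvest. They received vehicle (PBS with 25 mM HCl), 1 nM PTH 1-34, or 0.5 µM YKL-05-093, each for 4 h. The supplement of the study gives DMSO as the solvent of its compounds in cell experiments, and whether the vehicle libraries received it is not given in the sources used here, so an effect of that solvent and one of YKL-05-093 cannot be told apart. Each of these 3 groups has 2 libraries of rRNA-depleted RNA, and 1 vehicle group serves as the control of both agents. All 6 libraries come from 1 cell line. The methods call the replicates experimental duplicates without saying whether they were separate cultures, so the p-values measure only the spread between these libraries, which may be technical.

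Class IIa HDACs are corepressors that move between cytoplasm and nucleus. When SIKs or calcium-dependent kinases phosphorylate them, 14-3-3 proteins bind them and hold them in the cytoplasm; when dephosphorylated, they enter the nucleus and repress genes bound by MEF2 factors. In osteocytes, MEF2C drives Sost, which encodes the WNT antagonist sclerostin, and HDAC4 and HDAC5 act between the PTH receptor and that gene. The values here are RNA levels, and the location or phosphorylation of these proteins was not part of this measurement.

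Levels are given in RPKM, reads scaled to gene length and library size, so that levels of different genes can be compared per length. Whole numbers of reads behind them were solved for all 26214 genes above 0 (96.7% of genes were exact in simulated data), and the library totals lay between 17505798 and 27983585 reads. Vehicle duplicates were further apart than treated ones, with a median absolute log2 difference of 0.33 across genes, against 0.11 for PTH and 0.10 for YKL-05-093. All 8 member rows with reads were higher in vehicle library 1 than in vehicle library 2. Across the 14264 genes with at least 0.5 RPKM in 2 or more libraries, 54.7% were higher in vehicle library 1. Osteocyte and osteoblast markers summed to 519.8 to 762.8 RPKM per library, with Col1a1 as the largest part. The late osteocyte genes Sost, Fgf23 and Mepe were at or near 0, as was Dkk1. Phex, at 0.764 to 4.93 RPKM, and Dmp1, at 0.376 to 1.155 RPKM, were low but above these, and Pdpn had 53.1 to 170.5 RPKM. Chondrocyte markers summed to between 1.83 and 3.51 RPKM, adipocyte markers to between 1.10 and 2.33, and skeletal muscle markers to between 0.498 and 0.663. Blood and endothelial markers summed to between 74.3 and 94.9 RPKM, nearly all of it Ctsk, while Ptprc and Cdh5 were at or near 0.

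In vehicle, Mef2c had the highest level of the 8 genes, with 56.1 and 35.5 RPKM in its libraries. Hdac5 (20.9 and 18.0 RPKM) and Mef2a (21.9 and 14.6 RPKM) came next, and their ranges overlapped. Hdac4, Mef2d and Hdac7 formed a lower group of overlapping neighbours, with 10.9 and 6.74, 8.31 and 5.99, and 6.29 and 5.19 RPKM. Hdac9 was lower than these, at 3.25 and 2.63 RPKM. Mef2b (chr8:70139711-70167488 on GRCm38, plus strand), the MEF2 gene best known from B cells, was listed at 0 in all 6 libraries, where 3 reads would correspond to between 0.0769 and 0.123 RPKM. A neighbouring gene, 2310045N01Rik, shares 62 exon bases with Mef2b on the same strand and had 7.32 to 9.12 RPKM, and how reads on shared bases were assigned was not tested. The other 8 rows were above 0.5 RPKM in every library and were tested. After PTH the order differed: Hdac4 stood highest, above Mef2c, Hdac5 and Mef2a, whereas after YKL-05-093 it stood below Mef2c and Hdac5. In both treated groups, neighbours in the order did not overlap except Mef2d with Hdac7 after PTH and Mef2a with the second identifier of Hdac4 after YKL-05-093.

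**Figure D1:**
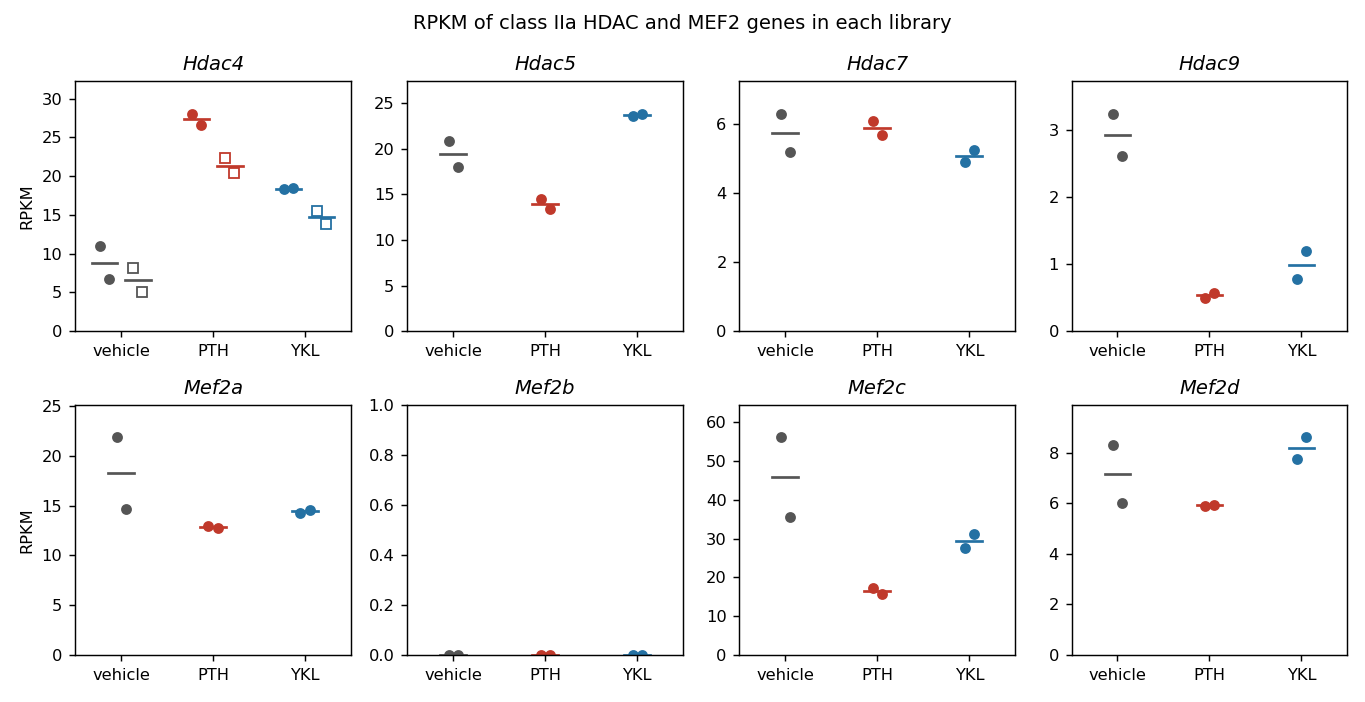
RPKM (vertical axes, starting at 0) of the 8 genes in each of the 6 libraries, by condition (YKL stands for YKL-05-093); points are libraries, bars are group means, and open squares are the second Ensembl identifier of Hdac4. Hdac4 libraries sit between 26.6 and 28.1 RPKM after PTH and between 6.74 and 10.9 in vehicle, Hdac9 and Mef2c libraries sit below vehicle after PTH, and Mef2b is at 0 throughout.

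PTH raises cyclic AMP, which acts on cAMP response elements (CREs) through CREB, and MEF2 factors bind an A/T-rich element, so the start-site windows of the members were searched for letters of both. RefSeq windows on GRCm38.p6, from 250 bases before to 50 after an annotated start, were found for all 8 symbols, 14 windows in all. The full CRE, TGACGTCA, is in 1.79% of all 32851 such windows and in none of the members'. The CRE half-site TGACG, contained in the full element, is in 20.8% of all windows; both strands were read for each motif. That share counts windows with any match, not the matches in a window. Among the members, only the windows of Hdac4 and Hdac5 held it. Hdac4 held it 3 times (103 and 51 bases before the start and 14 after it) and Hdac5 2 times (7 and 16 bases after the start). The Hdac4 window has 68.0% G and C and that of Hdac5 60.7%, against a median of 52.7% over all windows. The MEF2 element, searched as CTANNNNTAG, is in 3.69% of all windows and in those of 3 members, and its stricter A/T-only form is in 0.557% of all windows. Hdac5 held one 20 bases before its start, Hdac9 one 32 bases before the start of one of its 2 windows, and Mef2a one that begins 2 bases before the start and runs across it. Those of Hdac5 and Mef2a have the A/T-only form, while that of Hdac9 matches the looser form only. The windows of Hdac7, Mef2b, Mef2c and Mef2d held none of these letters. A match is a description of the sequence and neither a binding site nor a cause. The 4 windows with matches are shown because they belong to the class IIa genes whose RNA differed most between conditions and to the MEF2 gene with its own element at the start; capitals mark the matched letters.
Hdac4, chr1:92180292-92180591, minus strand: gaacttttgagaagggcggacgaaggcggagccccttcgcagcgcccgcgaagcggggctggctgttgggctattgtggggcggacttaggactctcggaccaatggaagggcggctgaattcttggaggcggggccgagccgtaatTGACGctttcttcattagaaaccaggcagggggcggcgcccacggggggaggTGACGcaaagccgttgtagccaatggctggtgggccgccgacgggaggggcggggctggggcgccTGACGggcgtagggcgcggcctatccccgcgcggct
Hdac5, chr11:102230123-102230422, minus strand: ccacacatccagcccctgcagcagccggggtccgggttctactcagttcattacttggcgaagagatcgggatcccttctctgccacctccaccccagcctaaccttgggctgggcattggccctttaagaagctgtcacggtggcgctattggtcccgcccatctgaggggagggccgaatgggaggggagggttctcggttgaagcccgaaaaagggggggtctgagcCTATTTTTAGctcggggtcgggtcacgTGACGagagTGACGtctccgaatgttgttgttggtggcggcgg
Hdac9, chr12:34528840-34529139, minus strand: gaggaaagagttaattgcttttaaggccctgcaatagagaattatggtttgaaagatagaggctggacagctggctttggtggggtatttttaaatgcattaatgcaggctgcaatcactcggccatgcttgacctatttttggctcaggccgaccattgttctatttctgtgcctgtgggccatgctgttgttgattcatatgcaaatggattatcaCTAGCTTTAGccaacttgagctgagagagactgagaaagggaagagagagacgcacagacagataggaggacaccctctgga
Mef2a, chr7:67372809-67373108, minus strand: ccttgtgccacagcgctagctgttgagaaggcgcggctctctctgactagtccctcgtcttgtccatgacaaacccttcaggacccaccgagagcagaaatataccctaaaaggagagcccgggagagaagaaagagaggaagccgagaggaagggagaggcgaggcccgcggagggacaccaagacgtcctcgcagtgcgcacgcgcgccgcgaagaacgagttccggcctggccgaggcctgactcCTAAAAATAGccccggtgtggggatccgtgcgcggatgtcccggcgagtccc

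PTH raised Hdac4 and lowered Hdac9 and Mef2c, and no other member passed the test against vehicle. Of the 7 symbols tested, 3 were called (1 higher and 2 lower) by limma, where a call needs both an adjusted p under 0.05 and more than a 2-fold difference. Across all 14261 genes tested, 1.91% were called by that rule and 2.19% by the adjusted p alone, which also called 3 symbols. Hdac4, whose product is the class IIa enzyme best known from growth plate cartilage, lies at chr1:91928779-92195699 on the minus strand. Its first identifier, ENSMUSG00000026313, had 28.1 and 26.6 RPKM after PTH, against 10.9 and 6.74 in vehicle. Both PTH libraries lay above both vehicle libraries, and the log2 fold change on RPKM + 0.1 was 1.66 with a standard error (SE) of 0.24 (adjusted p = 0.0173 from limma). The second identifier, ENSMUSG00000073617, gave 22.3 and 20.4 RPKM against 8.15 and 5.04, a log2 fold change of 1.72 (SE 0.24, adjusted p = 0.0145 from limma). Both rows thus moved to a like degree, but they carry 1 gene symbol and count once, and the second identifier is not among those of the annotation used here. A noncoding gene on the other strand, Gm26720, covers 3536 exon bases of Hdac4, while Hdac5, Hdac7, Mef2a and Mef2d share between 29 and 531 exon bases with another gene. Whether the counting used strand is not given in the sources used here. In these bulk samples, fewer cells of a kind and less RNA per cell cannot be told apart.

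Hdac9 (chr12:34047580-34917095, minus strand), a member known for short isoforms without a deacetylase domain, fell by more than Mef2c, the other member called lower. Its level was 0.504 and 0.571 RPKM after PTH, from 48 reads in each library, against 3.25 and 2.63 RPKM from 251 and 324 reads in vehicle. The PTH values lay far below the vehicle range, with a log2 fold change of -2.25 (95% interval -2.71 to -1.79, adjusted p = 0.00255 from limma). Adding 0.1 RPKM before the logarithm understates the change of so low a gene. Exact Poisson intervals, which cover counting error only, ran from 0.371 to 0.757 RPKM over both PTH libraries and from 2.35 to 3.68 RPKM over the vehicle libraries. Hdac5 (chr11:102194432-102230166, minus strand), the class IIa member of highest vehicle level, had 14.4 and 13.3 RPKM against 20.9 and 18.0. The groups did not overlap, but the log2 fold change of -0.48 (SE 0.17) did not pass the test (adjusted p = 0.283 from limma). Hdac7 (chr15:97792664-97844502, minus strand), known from thymocytes and endothelium, had 6.08 and 5.68 RPKM against 6.29 and 5.19. The groups overlapped, and the log2 fold change was 0.04 (95% interval -0.36 to 0.44, adjusted p = 0.952 from limma).

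Among the MEF2 genes, Mef2c (chr13:83504034-83667080, plus strand) fell from 56.1 and 35.5 RPKM in vehicle to 17.3 and 15.7 after PTH. Both PTH libraries lay below both vehicle libraries by more than the gap between the vehicle duplicates on the log2 scale, which was 0.66. The log2 fold change was -1.43 (SE 0.24, adjusted p = 0.029 from limma). Mef2a (chr7:67231163-67372858, minus strand), expressed in most tissues, had 13.0 and 12.8 RPKM against 21.9 and 14.6, and with a log2 fold change of -0.47 it missed the threshold (adjusted p = 0.425 from limma). Mef2d (chr3:88142372-88172086, plus strand), also expressed widely, had 5.90 and 5.95 RPKM, just below the lower vehicle value of 5.99 (log2 fold change -0.25, adjusted p = 0.683 from limma). When 1 library was left out, its group had 1 library, which was assumed to vary like the duplicates of the other group, so the spread came from those duplicates and the moderation across genes. Without PTH replicate 1 or 2, where the vehicle duplicates gave the spread, the log2 fold changes were 1.618 or 1.697 for Hdac4, -2.17 or -2.32 for Hdac9 and -1.50 or -1.36 for Mef2c. None of the 3 passed in these fits (adjusted p = 0.313 or 0.303, 0.0667 or 0.0566, and 0.445 or 0.643 from limma). Hdac4 and Mef2c were also lost without the filter on low values (0.149 and 0.198), with no trend of the spread (0.116 and 0.151) and with the spread on the mean value (0.0535 and 0.0743), Mef2c with quantile normalization (0.0546), and Hdac9 without the filter (0.0584). Leaving out vehicle replicate 2, so that the PTH duplicates gave the spread, brought Hdac5, Mef2a and Mef2d under an adjusted p of 0.05 as well (0.0130, 0.00721 and 0.0174 from limma), all 3 lower after PTH and by less than 2-fold.

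After YKL-05-093 no member passed the test against vehicle, and Hdac4 and Hdac9 had the largest differences. Limma called 0 of the 7 symbols, beside 0.666% of the 14255 genes tested, a share that the adjusted p alone also gives, 0.666%. At an unadjusted p under 0.05 there were 3 symbols, beside 1236 of all 14255 genes, and voom on the recovered reads also called none. Hdac4 had 18.3 and 18.5 RPKM, above both vehicle values of 10.9 and 6.74. Its log2 fold change was 1.09 (SE 0.24, 95% interval 0.53 to 1.65, adjusted p = 0.14 from limma), and that of the second identifier was 1.18 (adjusted p = 0.117 from limma), from 15.5 and 13.9 RPKM. Hdac9 had 0.782 and 1.20 RPKM, from 70 and 110 reads, below both vehicle values. Its log2 fold change was -1.50 (SE 0.24, 95% interval -2.06 to -0.93, adjusted p = 0.0583 from limma). Mef2c had 27.6 and 31.1 RPKM, below the lower vehicle value of 35.5, with a log2 fold change of -0.61 (SE 0.24, 95% interval -1.18 to -0.03, adjusted p = 0.538 from limma).

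Hdac5 had 23.6 and 23.8 RPKM after YKL-05-093, above its vehicle range, with a log2 fold change of 0.29 (adjusted p = 0.762 from limma). Hdac7 had 4.89 and 5.25 RPKM and a log2 fold change of -0.17, and Mef2a had 14.3 and 14.6 RPKM and a log2 fold change of -0.31. Mef2d had 7.76 and 8.60 RPKM, which overlapped its vehicle values, and a log2 fold change of 0.21. The adjusted p-values of these 3 genes ran from 0.815 to 0.867 (limma). The outcome for Hdac4 and Hdac9 depended on the model: in 1 fit of all 6 libraries, which share 1 estimate of the spread, both passed with a change over 2-fold (adjusted p = 0.0439 and 0.0177 from limma). Hdac9 also passed with quantile normalization, at a log2 fold change of -1.45 (adjusted p = 0.0432 from limma), whereas with a pseudocount of 1 its log2 fold change was -0.99 and did not pass (adjusted p = 0.0789 from limma). Single libraries mattered too, since the first identifier of Hdac4 passed without vehicle replicate 1 (adjusted p = 0.0343 from limma) and Hdac9 without vehicle replicate 2 (0.0477) or YKL-05-093 replicate 2 (0.0296). Without vehicle replicate 2, Hdac4, Mef2a and Mef2c also had an adjusted p under 0.05 (0.0267, 0.0267 and 0.027 from limma), each with a change of less than 2-fold.

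**Figure D2:**
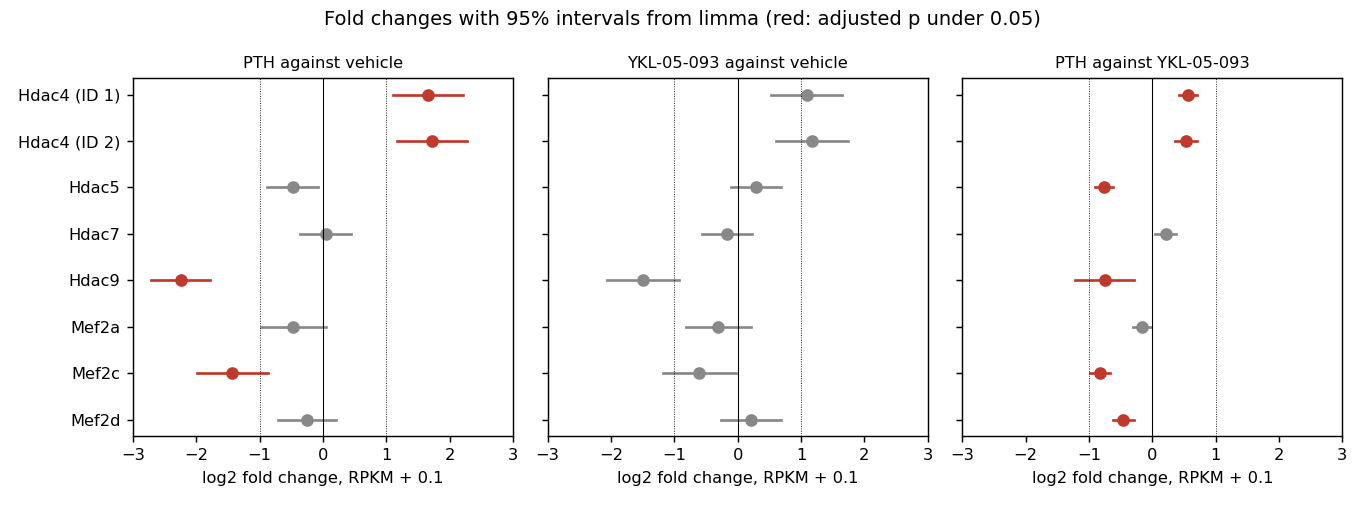
Log2 fold change on RPKM + 0.1 (horizontal axes) of the 8 tested rows in the 3 comparisons, with 95% intervals from limma; red marks an adjusted p under 0.05 and dotted lines mark a 2-fold change. Against vehicle, Hdac4 under both identifiers, Hdac9 and Mef2c are red for PTH and no row is red for YKL-05-093; in the direct comparison 5 symbols are red and none is beyond 2-fold.

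Set directly against each other, the treatments differed in both families: Hdac4 was higher and Hdac5, Hdac9, Mef2c and Mef2d were lower after PTH than after YKL-05-093. These 5 of 7 symbols had an adjusted p under 0.05 by limma, beside 9.97% of the 14255 genes tested. None was called at more than 2-fold, a rule met by 1.21% of all genes. Both Hdac5 values lay below both vehicle values after PTH and above both after YKL-05-093, although neither difference from vehicle passed, with 14.4 and 13.3 RPKM after PTH and 23.6 and 23.8 after YKL-05-093. Its log2 difference of PTH against YKL-05-093 was -0.77 (SE 0.07, adjusted p = 9.49e-07 from limma). Mef2c had a log2 difference of -0.83 (SE 0.08, adjusted p = 1.63e-06 from limma), from 17.3 and 15.7 against 27.6 and 31.1 RPKM. Hdac4 had a log2 difference of 0.57 (SE 0.07, adjusted p = 2.29e-05 from limma), and its second identifier one of 0.54. For Mef2d, with 5.90 and 5.95 RPKM after PTH and 7.76 and 8.60 after YKL-05-093, the log2 difference was -0.46 (SE 0.08, adjusted p = 0.000812 from limma). Hdac9 passed most narrowly, with a log2 difference of -0.75 (SE 0.22) and an adjusted p of 0.0374 from limma, and it stayed under 0.05 in 4 of 16 alternatives. With a pseudocount of 1 its log2 difference was -0.37 (adjusted p = 0.139 from limma), and it was also lost with the filter at 0.1 RPKM (0.0746), no filter (0.281), median-ratio scaling (0.0647) and the spread modelled on the mean value (0.255). Mef2d was lost with no filter (0.0921) and with the spread on the mean value (0.0505). Hdac7 and Mef2a did not pass, with log2 differences of 0.21 (SE 0.08) and -0.16 (SE 0.06) and adjusted p-values of 0.123 and 0.139 from limma.

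These results changed with the libraries used. Without PTH replicate 1 or 2, where the YKL-05-093 duplicates gave the spread, no member passed (adjusted p from 0.12 for Hdac5 to 0.454 for Hdac7, limma), at log2 differences of -0.82 or -0.71 for Hdac5 and -0.90 or -0.75 for Mef2c. Without YKL-05-093 replicate 2, where the PTH duplicates gave the spread, the first identifier of Hdac4, Hdac5 and Mef2c still passed (0.0373, 0.0231 and 0.0316) while Mef2d and Hdac9 did not (0.117 and 0.398). Without YKL-05-093 replicate 1, Hdac9 alone of the 5 was lost (0.0858), and in 1 fit of all 6 libraries only Hdac5 passed (0.0439). With no trend of the spread none of the 5 passed (0.0654 for Hdac5 to 0.248 for Hdac9).

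The make-up of each family, a description without a test, differed between conditions. With the first identifier of Hdac4, Hdac5 carried most of the class IIa RNA in vehicle, with 52.9% ± 3.38 (SD, n = 2) of the summed RPKM, and Hdac4 23.6% ± 4.04. After PTH, Hdac4 had 57.4% ± 0.269 and Hdac5 29.2% ± 0.363, so their places were exchanged in both libraries. After YKL-05-093, Hdac5 remained ahead with 49.2% ± 0.571, and Hdac4 had 38.2% ± 0.338. Hdac9 had 7.97% ± 0.143 in vehicle, with YKL-05-093 leaving 2.06% ± 0.58 and PTH 1.13% ± 0.148. The summed class IIa RPKM, with that identifier only, was 36.9 ± 6.22 in vehicle and similar for both agents, 48.2 ± 0.867 for YKL-05-093 and 47.6 ± 2.06 for PTH. With both identifiers of Hdac4 added, its share was 34.9% in vehicle, 52.6% with YKL-05-093 and 70.6% with PTH, in which case it led in both treated groups. Hdac5 then had 45.0% in vehicle. The sums were then 43.5 ± 8.42 RPKM in vehicle, 62.85 ± 0.273 for YKL-05-093 and 68.97 ± 3.43 for PTH, and the agents did not overlap. RPKM is per length, so adding rows that cover the same RNA would count Hdac4 more than once. Whether these rows do so was not tested. The lead of Hdac4 after YKL-05-093 and the separation of the agents' sums appear only with this addition.

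Among the MEF2 genes, Mef2c had the largest share in all 6 libraries, with 64.1% ± 1.24 in vehicle, 56.4% ± 1.24 with YKL-05-093 and 46.7% ± 1.65 with PTH. In the same order of groups, Mef2a had 25.7% ± 0.503, 27.9% ± 1.37 and 36.5% ± 0.95, and Mef2d 10.2% ± 0.739, 15.7% ± 0.129 and 16.8% ± 0.703. The summed MEF2 RPKM was 71.2 ± 21.3 in vehicle, 52.0 ± 3.35 with YKL-05-093 and 35.3 ± 1.28 with PTH. The vehicle duplicates, far apart in this sum, were close in the shares.

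**Figure D3:**
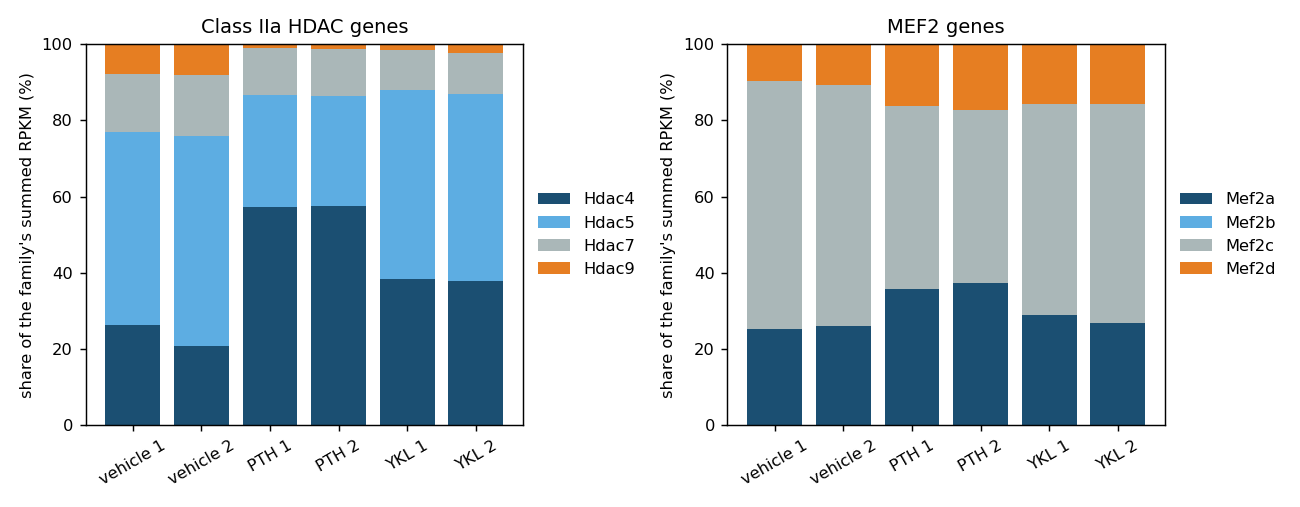
Share of each gene in the summed RPKM of its family (vertical axes, in percent), for class IIa HDACs (left) and MEF2 genes (right), in each of the 6 libraries (YKL stands for YKL-05-093), with the first identifier of Hdac4. Hdac4 takes 57.2% and 57.5% of class IIa RPKM in the PTH libraries against 26.4% and 20.7% in vehicle, and Mef2c remains the largest MEF2 share throughout.

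Ratios of members within a library do not depend on library scaling, and for the MEF2 genes their vehicle duplicates lay closer together than the levels did. Mef2c stood at 2.56 and 2.43 times the RPKM of Mef2a in vehicle, 1.93 and 2.13 times with YKL-05-093, and 1.33 and 1.22 times with PTH. The 3 groups did not overlap in this ratio, with YKL-05-093 between the others. Mef2c was 6.75 and 5.92 times Mef2d in vehicle, 3.55 and 3.62 times with YKL-05-093 and 2.94 and 2.63 times with PTH, again without overlap. Hdac4 was 0.523 and 0.375 times Hdac5 in vehicle, 0.774 and 0.777 times with YKL-05-093, and 1.94 and 1.99 times with PTH. Hdac9 was 0.156 and 0.146 times Hdac5 in vehicle and 0.0349 and 0.0428 times after PTH. After YKL-05-093 this ratio was 0.0332 and 0.0505, which spans the PTH values. With 2 libraries in each group, an exact two-sided permutation test of any single ratio cannot reach 0.05, so none is given.

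**Figure D4:**
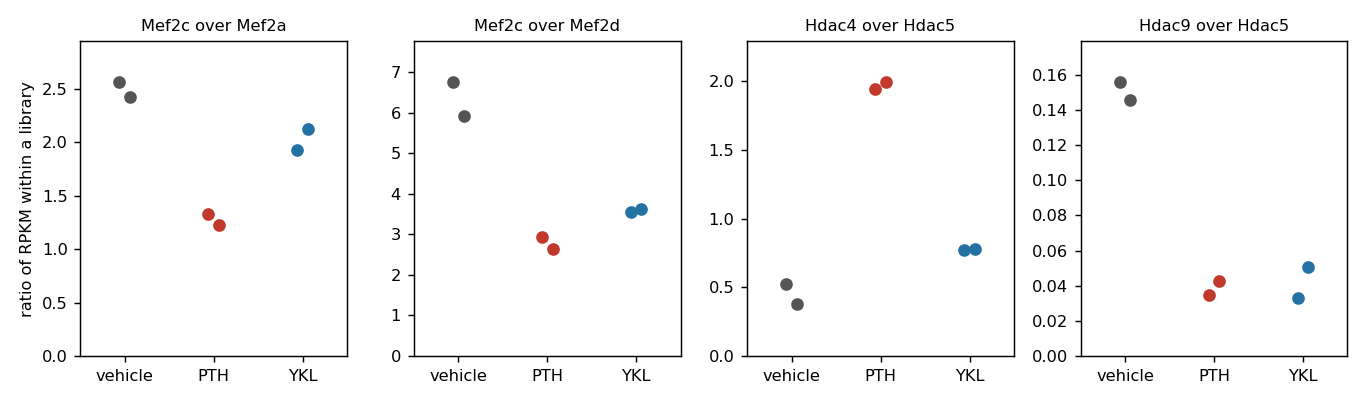
Ratios of RPKM within a library (vertical axes, starting at 0) for 4 pairs of members, with 1 point for each library, by condition (YKL stands for YKL-05-093). Mef2c over Mef2a lies between 2.43 and 2.56 in vehicle and between 1.22 and 1.33 after PTH, and Hdac9 over Hdac5 overlaps between the treated groups.

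Genes that act on or with these proteins were read from lists by role, against the same background of 1.91% called for PTH and 0.666% for YKL-05-093. Of 19 tested kinases that phosphorylate class IIa HDACs or activate such kinases, 1 was called higher for each agent and none was called lower. Camk4, a nuclear calcium/calmodulin kinase, rose after PTH from 0.742 and 0.458 to 1.81 and 1.63 RPKM (log2 fold change 1.41, adjusted p = 0.0283 from limma), and stood at 0.832 and 0.845 after YKL-05-093. Sik1, a SIK whose gene is a CREB target, rose after YKL-05-093 from 1.68 and 1.22 to 4.31 and 4.14 RPKM (log2 fold change 1.49, adjusted p = 0.0318 from limma). It had 2.81 and 2.40 RPKM after PTH (adjusted p = 0.121 from limma). The kinases of highest level, Mark3 and Prkd3, had log2 fold changes between -0.17 and -0.09 in both comparisons with vehicle.

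None of the 7 tested 14-3-3 genes, 11 subunits of the phosphatase PP2A, which dephosphorylates class IIa HDACs, 7 other HDACs, 10 corepressor partners and 15 MEF2 co-activators and upstream kinases was called against vehicle by limma. Every 14-3-3 gene tested had a fitted level below vehicle after PTH, with a median log2 fold change of -0.28 against -0.03 for all genes tested. The share of all genes below vehicle was not counted, so this is no result about the family. Sfn and Ywhaq overlapped their vehicle values, and adjusted p-values in the list ran from 0.271 to 0.919 (limma). The most abundant 14-3-3 gene, Ywhae, had 88.3 and 91.1 RPKM after PTH against 112.3 and 106.0 in vehicle. Corepressor partners had a median of -0.24 after PTH and -0.18 after YKL-05-093, but for several of them the vehicle duplicates were far apart. Ncor1 had 12.3 and 6.64 RPKM in vehicle, and its values after PTH (7.71 and 7.85) and YKL-05-093 (7.525 and 8.09) lay in between. Ctbp1, with close vehicle values of 101.4 and 102.7 RPKM, had 90.4 in both PTH libraries and 96.6 and 100.6 after YKL-05-093. Hdac3, the deacetylase that class IIa complexes recruit, had between 21.6 and 22.9 RPKM in all 6 libraries. Ppp2r1a and Ppp2ca, the scaffold and catalytic subunits of PP2A with the highest levels, had log2 fold changes between -0.01 and 0.10 against vehicle. Ctbp1 and Cbx5 among the partners, Hdac2 among the other HDACs, and Ppp3ca and Ppp3r1, the calcineurin subunits, did not pass either.

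Of 15 genes listed as MEF2 targets, 6 could be tested and 1 was called, in the same direction for both agents. Nr4a1, an immediate-early nuclear receptor gene with MEF2 and CREB elements, rose from 4.45 and 3.72 RPKM to 9.85 and 9.75 RPKM with PTH (log2 fold change 1.25, adjusted p = 0.013 from limma). With YKL-05-093 it rose to 33.2 and 42.6 RPKM (log2 fold change 3.18, adjusted p = 0.00229 from limma). Klf2, a Krüppel-like factor gene, had 12.7 and 14.5 RPKM in vehicle, 12.7 and 17.9 with YKL-05-093 and 6.95 and 8.19 with PTH, where it did not pass (adjusted p = 0.0624 from limma). Sost had 0 and 3 reads in vehicle, 1 and 2 with YKL-05-093 and 0 in both PTH libraries, all at or under a floor of 3 reads, so its response was not detectable at this depth.

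Class IIa HDACs also bind factors outside the MEF2 family, and of 7 such genes tested, 2 were called lower after PTH and none after YKL-05-093. Sp7, which encodes the osteoblast factor osterix, fell from 46.0 and 45.5 to 12.2 and 11.1 RPKM (log2 fold change -1.97, adjusted p = 0.00189 from limma), and had 22.4 and 29.7 RPKM after YKL-05-093. Runx1, a runt-domain factor gene, fell from 12.3 and 7.64 to 3.85 and 3.79 RPKM (log2 fold change -1.32, adjusted p = 0.0363 from limma), and lay within its vehicle range after YKL-05-093. The median log2 fold change of the 7 genes was -0.85 after PTH, against -0.03 for all genes, and -0.40 after YKL-05-093, against -0.04. Directly compared, 6 of the 7 were lower after PTH than after YKL-05-093 at an adjusted p under 0.05 (limma), beside 9.97% of all genes in either direction. Of 8 osteocyte and osteoblast markers tested in the same libraries, Pdpn and Bglap were called higher and Sp7, which is in both lists, lower after PTH. The others, among them Col1a1, Alpl, Dmp1 and Phex, were not called, and none of the 8 was called after YKL-05-093. Col2a1, 1 of 2 chondrocyte markers tested, was called higher after PTH as well, from 0.625 and 0.577 to 1.71 and 1.54 RPKM, with Acan at or near 0. Summed, the osteocyte and osteoblast markers had 611.0 and 519.8 RPKM in vehicle. They had 593.8 and 695.5 RPKM with YKL-05-093 and 762.8 and 682.0 with PTH. Among them, Sost, Fgf23 and Mepe were at or near 0, and Phex and Dmp1 were low. The part of these markers in the results for the class IIa and MEF2 genes was not tested.

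**Figure D5:**
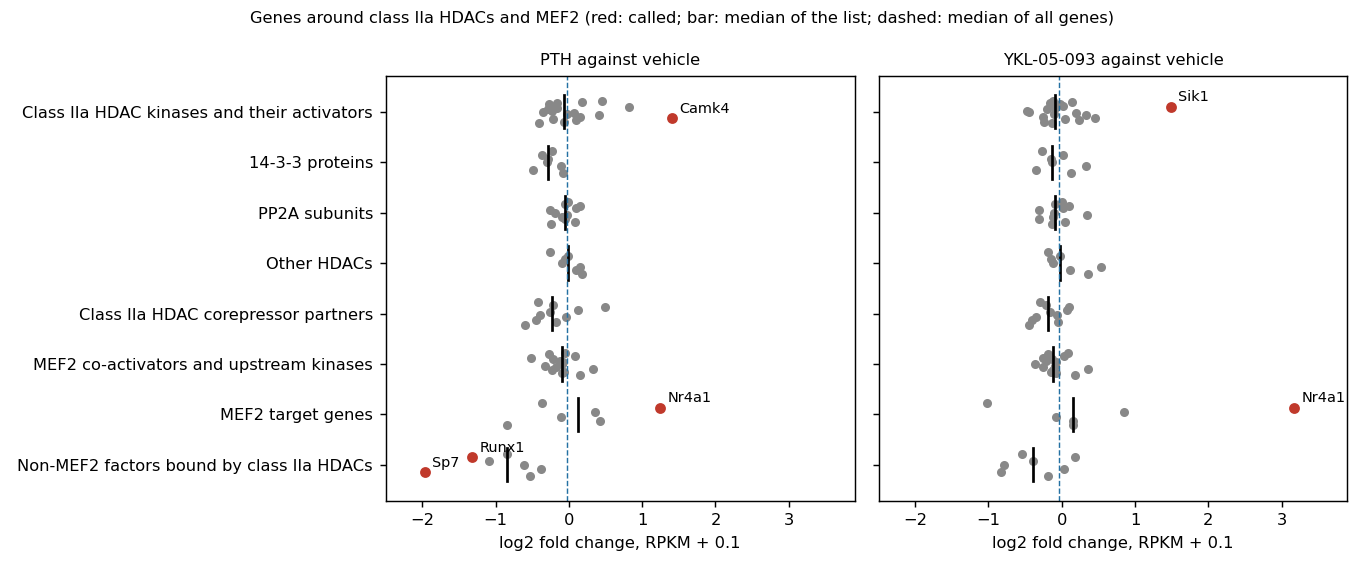
Log2 fold change on RPKM + 0.1 against vehicle (horizontal axes) of the genes in 8 lists by role, for PTH (left) and YKL-05-093 (right); each point is 1 gene, bars are list medians, the dashed line is the median of all genes tested and red points are called genes with their symbols. The non-MEF2 factors have a median of -0.85 for PTH, and the points of the other lists lie around 0 apart from Camk4, Sik1, Nr4a1 and a few genes that did not pass.

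The genes with the profiles nearest to 4 members were found by Euclidean distance between log2(RPKM + 0.1) values over the 6 libraries, after each gene's mean was subtracted, among 14264 genes. The second identifier of Hdac4 was left out as having the same symbol. For Hdac4 they were Gm25781, Ksr1 and Foxf1, at distances of 0.277, 0.322 and 0.33, against a median distance of 1.85 to all genes. Kcnk6, Wscd2 and Fgfr3 were nearest to Hdac5 (0.12, 0.126 and 0.186, median 0.916). Hdac9 had Cd200, Chst15 and Tmem229b as its neighbours (0.352, 0.36 and 0.504, median 2.35). Those of Mef2c included Rpgrip1l and Rnf144b (0.146 and 0.151, median 1.55). The 6 values behind each distance include the gap between the vehicle duplicates, which Rpgrip1l shared with Mef2c at 13.4 and 8.49 RPKM.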

How the data were processed

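The 6 libraries were directional and made from rRNA-depleted RNA. Per the labels and the study's methods, the authors mapped reads to mm10 (GRCm38) with STAR (CASAVA 1.7 is also named in the submitters' processing notes), counted them per Ensembl gene with HTSeq and deposited RPKM, without a logarithm or scaling between libraries. Genes were placed on GRCm38 with GENCODE M21, which holds 37607 of the 39179 identifiers.

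The gene length of each row and the library totals were solved from the steps between RPKM values, with GENCODE exon lengths to set the scale, which gave whole reads for 100.0% of genes above 0. Lengths were chosen to give whole reads, so that share is no check. In simulated data 96.7% of genes were recovered exactly. Of the solved lengths, 36.0% equalled the annotated exon bases less 1 per exon block. Values were tested with limma 3.58.1 in R 4.3.3 after taking log2(RPKM + 0.1). A gene was tested if 2 or more libraries reached 0.5 RPKM and a compared library held a read. The prior variance followed a trend on each gene's mean log2 read number. Each comparison used its 4 libraries, with Benjamini-Hochberg adjustment over all genes tested. Genes were called at an adjusted p under 0.05 and over 2-fold. The script was tested on simulated data. RPKM depends on the counted length, which for Hdac4 (3911 bases), Hdac9 (4410) and Mef2c (6746) was far below the annotated exon bases (15813, 14665 and 15715), so levels between genes are less certain than differences between conditions.

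The members, lists and test settings were chosen with earlier results of these data known. Genes named from the lists were those called in any comparison, genes of the 2 highest mean levels in each list, and Sost; Pdpn, Bglap and other markers come from marker lists, and nearest profiles were sought for Hdac4, Hdac5, Hdac9 and Mef2c, of which 1 gene is not reported here. The alternatives were other pseudocounts, filters, models of the spread, scalings, fold limits, voom, a replicate block and leaving out each library. PTH and YKL-05-093 were compared with the same vehicle libraries, and each also enters the direct comparison, so the 3 results are not independent.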

Additional observations from a re-analysis of the deposited data

How the results depend on the processing

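The calls for Hdac4, Hdac9 and Mef2c after PTH kept their direction in all 16 alternatives. Hdac4 was not called in 5 of them, Hdac9 in 3 and Mef2c in 6, and the log2 fold changes without 1 library ran from 1.31 to 2.00, from -2.40 to -2.10 and from -1.76 to -1.10. With a pseudocount of 1, Hdac9 was at -1.35 for PTH, still called, and at -0.99 for YKL-05-093, not called. Hdac7 for PTH ran from -0.096 to 0.18 with 1 library left out, and Mef2d for YKL-05-093 from -0.023 to 0.44, and neither was called. The counts of called genes moved more. Against 272 genes for PTH, 95 for YKL-05-093 and 172 for the direct comparison, no filter gave 0 for both agents (2338 and 1733 genes at an unadjusted p under 0.05, limma), a spread modelled on the mean value 160 and 6, and no trend 130, 29 and 51. A pseudocount of 1 gave 55 for YKL-05-093 and 98 for the direct comparison, 1 fit of all 6 libraries 173 and 102, a filter of 0.1 RPKM 57 for YKL-05-093, and keeping genes without a read, an alternative added after seeing the data, 34. For the direct comparison a limit of 1.5-fold gave 542 and no limit 1421. Leaving out 1 library gave 14 to 669, 11 to 321 and 0 to 155 genes, with 0 in the direct comparison without either PTH library (2130 and 2022 genes at an unadjusted p under 0.05, limma). Adding both identifiers of Hdac4, which may count the same RNA more than once, changed its share of class IIa RPKM. That share was then 34.9% in vehicle, 52.6% with YKL-05-093 and 70.6% with PTH. The causes were not tested.

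Libraries of the same replicate number shared no deviation across genes, with correlations of -0.034, -0.054 and -0.049. These values cannot tell whether the cultures were set up in pairs. With the replicate block, 440 and 215 genes were called against vehicle, Hdac4 and Hdac9 among the latter (adjusted p = 0.00272 and 6.36e-07 from limma), and no other call of a member changed. Sost and Mef2b had at most 3 reads in any library, and whether depth or another cause lies behind these values was not tested.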
